A study of Mus musculus with 2 samples.

Results

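Clustered histone genes are the mouse genes, in 4 genomic groups, that supply most of the H1, H2A, H2B, H3 and H4 histones a cell packs new DNA with. They were taken here as every gene whose symbol starts with Hist1h, Hist2h, Hist3h or Hist4h and that has at least 1 transcript annotated as protein-coding. This gave 67 genes of the 55536 in the deposited gene tables, among 21901 genes with a protein-coding transcript. They comprise 6 H1, 18 H2A, 18 H2B, 12 H3 and 13 H4 genes. On the annotation, 54 belong to the Hist1 group on chromosome 13, 10 to Hist2 on chromosome 3, 2 to Hist3 on chromosome 11 and 1, Hist4h4, lies on chromosome 6.

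The RNA came from bone marrow-derived macrophages, phagocytes grown in culture from the bone marrow of C57BL/6J mice. Both libraries are biological replicates of 1 treatment. According to their descriptions, the cells received 100 ng/ml Lipid A, the part of bacterial lipopolysaccharide that cells sense, for 12 h, were washed and kept without it for 12 h, and received 100 ng/ml Lipid A again for 300 min before RNA was taken. Elsewhere the labels name the agent as lipoprotein A, and nothing in them says which term is correct. Sex and age were not collected, and both replicates carry 1 donor identifier with separate biosamples, so they may vary less than different animals would. No untreated sample was used here, and no level below was tested for a response to the treatment. The labels give a polyA-plus assay, 1 µg of RNA and fragments of 250 to 400 nt.

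The libraries held 50503159 expected counts in replicate 1 and 46342331 in replicate 2, and the clustered histone genes took 0.0205% and 0.0244% of them. At this depth an observed 0 allows a true value of up to 3 counts per library, which is 0.0594 and 0.0647 CPM (counts scaled to the library total). This limit covers counting alone, and for genes with shared sequence a 0 also rests on how reads were assigned. The 10 macrophage markers all stood at 10 TPM or higher in each library, with Lyz2 at 10292 and 11210 TPM. TPM is a transcript level scaled for transcript length and for the library total. Of 21 markers of neutrophils, B, T, erythroid, stromal and dendritic cells, 2 reached 1 TPM in both libraries, the neutrophil genes S100a9 and S100a8, and the defining genes Ly6g and Hbb-bs were at 0. Together the 21 summed to 63.5 TPM in replicate 1, against 6.05 TPM in replicate 2.

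Most messenger RNAs end in a polyA tail, but replication-dependent histone mRNAs usually do not. Their 3′ end is cut a few bases after a conserved stem-loop, which the stem-loop binding protein Slbp holds with the U7 small nuclear RNP guiding the cut, and their amount climbs when cells copy DNA and drops when copying stops. Some clustered genes can also give longer, polyadenylated transcripts in cells that are not dividing. Replication-independent histone genes mostly give ordinary polyadenylated mRNAs, also when DNA is not being copied. PolyA selection therefore samples the clustered genes only in part, and the levels here are levels in polyA-selected RNA.

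The stem-loop is shown for the leading members that carry it, because it marks the usual end of their mRNAs. Read from the GENCODE M21 transcripts (mm10), the capitals are the 16 bases that match the histone stem-loop consensus, and the lower-case letters are up to 5 transcript bases on each side.
Hist2h2aa1, chr3:96246027-96246052, plus strand: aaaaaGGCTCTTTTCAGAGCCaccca
Hist1h1c, chr13:23739507-23739532, plus strand: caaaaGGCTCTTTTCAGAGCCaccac
Hist3h2a, chr11:58955167-58955192, plus strand: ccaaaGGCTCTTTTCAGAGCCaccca
Hist1h4i, chr13:22040961-22040986, minus strand: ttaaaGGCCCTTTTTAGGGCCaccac
Hist1h2ap, chr13:21833026-21833049, minus strand: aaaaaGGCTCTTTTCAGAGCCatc
The core printed for Hist2h2aa1 was found in the models of 26 members. Among them is Hist2h2aa2, which carries the same bases as printed for Hist2h2aa1 and is not printed again. The core of Hist1h4i was shared by 1 other member, Hist2h4. In all, 46 of 67 members had a match after the stop codon, with 8 different cores. The model of Hist1h2bc, the member with the highest level, held none. Only spliced transcripts were searched, so the genome between the exons of Hist1h2bc was not.

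Of the 67 members, 10 had 1 TPM or more in both libraries (14.9%), against 9764 of the 21901 protein-coding genes (44.6%). At 10 TPM the count was 6 members (8.96%), against 6017 protein-coding genes (27.5%). The 10 members were Hist1h2bc, Hist2h2aa1, Hist2h2aa2, Hist1h1c, Hist3h2a, Hist1h4i, Hist1h2ap, Hist2h2be, Hist1h2bg and Hist2h3c2. The median of the members' mean levels was 0.075 TPM, against 0.305 TPM over protein-coding genes. The members summed to 359 and 434 TPM in replicates 1 and 2 (397 ± 53.1 TPM, SD, n = 2). The 5 highest members, Hist1h2bc, Hist2h2aa1, Hist2h2aa2, Hist1h1c and Hist3h2a, held 90.1% and 89.8% of that sum.

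**Figure D1:**
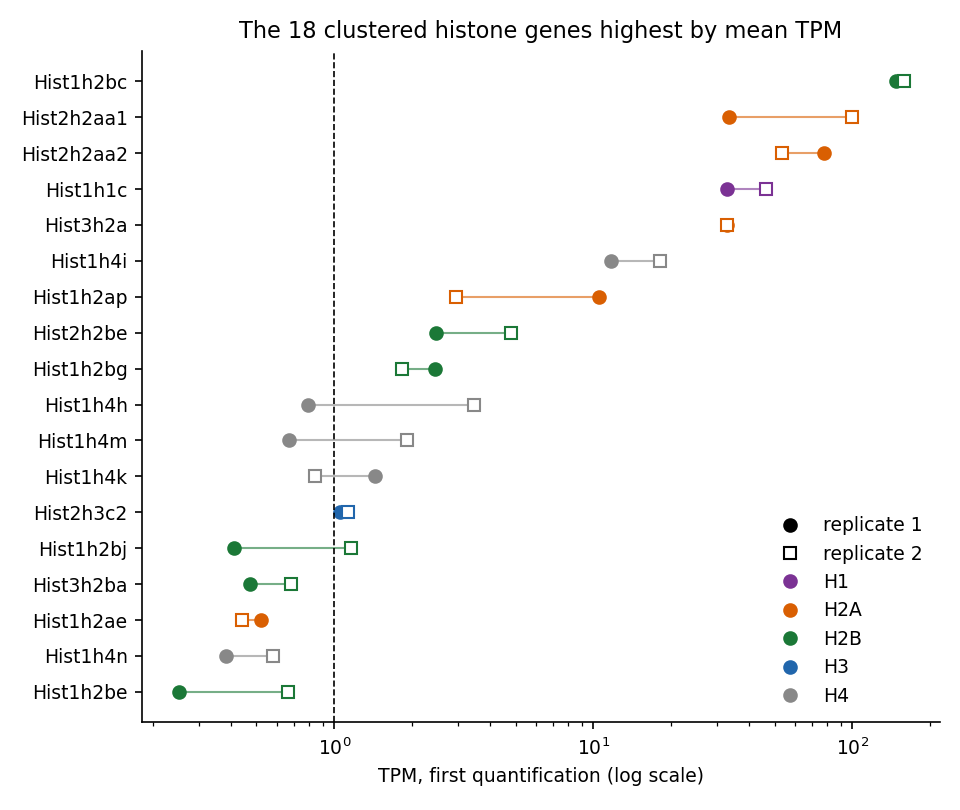
TPM of the 18 members with the highest mean level, on a log axis, as a filled circle for replicate 1 and an open square for replicate 2, coloured by histone subtype. The dashed line marks 1 TPM. Hist1h2bc stands at 148 and 157 TPM, and Hist1h4h, Hist1h4m, Hist1h4k and Hist1h2bj have 1 library on each side of the line.

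H2B was carried by 1 gene. Hist1h2bc (chr13:23684199-23692908, plus strand) had 148 TPM in replicate 1 and 157 TPM in replicate 2, from 4767 and 4671 expected counts, which placed it 900th among protein-coding genes by mean level. It made up 95.7% and 93.8% of the H2B sum, and the other 17 H2B genes came to 6.65 and 10.5 TPM together. Hist2h2be followed with 2.46 and 4.81 TPM, and Hist1h2bg with 2.44 and 1.82 TPM. Hist1h2bj straddled the threshold with 0.41 and 1.16 TPM, from 3.01 and 8.02 counts. The coding sequence of Hist1h2bc differs from its nearest relative, Hist1h2br, at 2 of 378 bases, but 66.3% of the 31-base stretches of its transcript occur in no other annotated gene. For Hist2h2be that share was 97.2%, so its reads are well separable.

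H2A was carried by 3 genes, of which a pair shares most of its sequence. Hist2h2aa1 had 33.3 TPM in replicate 1 and 99.9 TPM in replicate 2, while Hist2h2aa2 had 77.4 TPM in replicate 1 and 53.7 TPM in replicate 2, so the order of the pair was opposite in the libraries. The 528-nt model of Hist2h2aa2 lies whole and without a mismatch inside the 586-nt model of Hist2h2aa1, and none of its 31-base stretches is its own, while Hist2h2aa1 has 10.3% of its own. The deposited posterior SD of the counts was 29.2 and 56.9 for Hist2h2aa1, against 2.47 and 2.13 for the far more abundant Hist1h2bc. The sum of the pair depends less on this division, and stood at 111 and 154 TPM (132 ± 30.4 TPM, SD, n = 2). Counted as 1 gene, the pair left 9 members at 1 TPM or more in both libraries.

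Hist3h2a (chr11:58954685-58956830, plus strand) was the steadiest of the leading members, with 32.9 and 32.7 TPM. Its 2245 and 2043 counts exceeded the 1133 and 1565 counts of the Hist2h2aa pair, because its 2146-nt model is longer and TPM divides by length. Hist1h2ap had 10.5 TPM in replicate 1 and 2.94 TPM in replicate 2, from 84.7 and 22.1 counts. Its coding sequence is identical to that of Hist1h2ao, which was listed at 0, and 6.64% of its 31-base stretches are its own, so its value is uncertain as to locus.

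H1 linker histones bind where DNA enters and leaves the nucleosome, and among the clustered H1 genes Hist1h1c stood alone. It had 32.8 TPM in replicate 1 and 46.3 TPM in replicate 2, which made up 99.2% and 99.5% of the H1 sum. The other 5 H1 genes together came to 0.27 and 0.21 TPM. Hist1h1c reads are well separable, since 88.6% of its 31-base stretches occur in no other gene.

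H4 was led by Hist1h4i, with 11.7 TPM in replicate 1 and 18.1 TPM in replicate 2, or 75.1% and 66.8% of the H4 sum. Next came Hist1h4h with 0.79 and 3.47 TPM, from 6.05 and 24.7 counts, and Hist1h4m with 0.67 and 1.91 TPM, from 3.64 and 9.64 counts. Hist1h4k had 1.43 and 0.84 TPM from 3.93 and 2.14 counts. Its model is the coding sequence alone, 312 nt long, and its effective length of 75.7 nt in replicate 1 turns a few reads into a level near the threshold.

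H3 was nearly absent among the clustered genes. The 12 genes summed to 1.44 and 2.11 TPM, of which Hist2h3c2 gave 1.05 and 1.13 TPM from 28.9 and 28.4 counts. Its mirror-image neighbour in the Hist2 group, Hist2h3c1, was listed at 0 in replicate 1 and at 0.67 TPM (34.5 counts) in replicate 2. None of the 31-base stretches of Hist2h3c1 is its own, and the second quantification listed it at 0 in both libraries. Its 0 in replicate 1 carried a deposited posterior SD of 8.53 counts and a TPM interval reaching 0.64 TPM.

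No count was assigned to 24 members in either library (35.8%), against 7753 protein-coding genes (35.4%), so the share of genes with no reads was close to the background. Among H1 genes these were Hist1h1b and the testis gene Hist1h1t. Among H2A genes they were Hist1h2aa, Hist1h2af, Hist1h2ag, Hist1h2ah, Hist1h2ai, Hist1h2ak, Hist1h2an, Hist1h2ao and Hist2h2ac. The H2B genes were Hist1h2ba, Hist1h2bb, Hist1h2bk, Hist1h2bl, Hist1h2bm, Hist1h2bp and Hist2h2bb, and the H3 genes were Hist1h3b, Hist1h3g, Hist1h3h, Hist1h3i and Hist2h3b. Hist1h4f was the single H4 gene. A further 26 members had a mean count above 0 and under 10, so 17 members had a mean count of 10 or more and 7 had 100 or more.

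The annotated 3′ ends differed between members. A polyadenylation signal is the hexamer AATAAA or ATTAAA a short way before the end of a polyadenylated mRNA, and it was searched on the transcript strand within 50 nt of the annotated end. In the GENCODE models, taken as 1 coding transcript per member, 15 of 67 members held one. They were 4 of the 10 members at 1 TPM or more in both libraries and 11 of the other 57. Hist1h2bp and Hist1h2br are not among the 15, but each has another coding transcript with AATAAA, beginning 23 and 27 nt before its end. The 4 among the 10 were Hist1h1c, Hist3h2a, Hist1h4i and Hist2h2be. For Hist1h2bc the GENCODE model runs 428 nt beyond the end that RefSeq gives, and AATAAA begins 19 nt before the RefSeq end. In Hist2h2be it begins 22 nt before an end that both annotations share. Counting either annotated end of these models, 16 members held a signal, and 5 of them were among the 10. A RefSeq end that lies beyond the GENCODE model could not be searched, as for Hist1h2aa, Hist1h2bl and Hist1h2ap. The members counted without a signal include such members. By summed level the choice of annotation decides the picture, through Hist1h2bc alone. The 15 members with a signal in the GENCODE models gave 22.9% and 25.2% of the members' summed TPM, and the other 52 gave 77.1% and 74.8%. With Hist1h2bc added, which by itself held 41.1% and 36.2%, the 16 gave 64.0% and 61.5%, and the other 51 gave 36.0% and 38.5%.

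RefSeq and GENCODE disagree on where these transcripts end. Of 46 members with a stem-loop, 43 have a RefSeq end within 10 nt of it, the usual end of a replication-dependent histone mRNA. GENCODE carries Hist1h1c on for 840 nt after the stem-loop, against 4 nt in RefSeq, Hist3h2a for 1643 nt, against 5 nt, and Hist1h4i for 330 nt, against 6 nt. Both quantifications used the GENCODE lengths, so a TPM of these genes would be higher if the molecules ended where RefSeq ends them. In contrast, Hist2h2aa1 and Hist2h2aa2 end 35 nt after the stem-loop in GENCODE and 5 nt after it in RefSeq, with no signal near either end.

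Sorted by model, 23 members had a stem-loop followed by 100 nt or more, and 5 of these reached 1 TPM in both libraries while 1 had 0 counts. Another 23 had a stem-loop with less than 100 nt after it, of which 3 reached 1 TPM (Hist2h2aa1, Hist2h2aa2 and Hist1h2ap) and 10 had 0 counts. Of 5 whose model goes on past the stop codon without a stem-loop, Hist1h2bc and Hist2h2be reached it. Of 16 members whose model is little more than the coding sequence, none reached 1 TPM in both libraries and 12 had 0 counts. Hist1h2br is among the 16 by its 381-nt transcript, though a 1256-nt coding transcript is annotated too. A model that lacks its ends offers fewer bases to assign reads to, and the part of annotation length in these counts was not tested. By summed level, the members whose model passes the stop codon without a stem-loop gave 150 and 163 TPM, of which Hist1h2bc gave 148 and 157 TPM. Those with a stem-loop near the end gave 124 and 165 TPM, and those with an extended end 83.3 and 105 TPM.

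**Figure D2:**
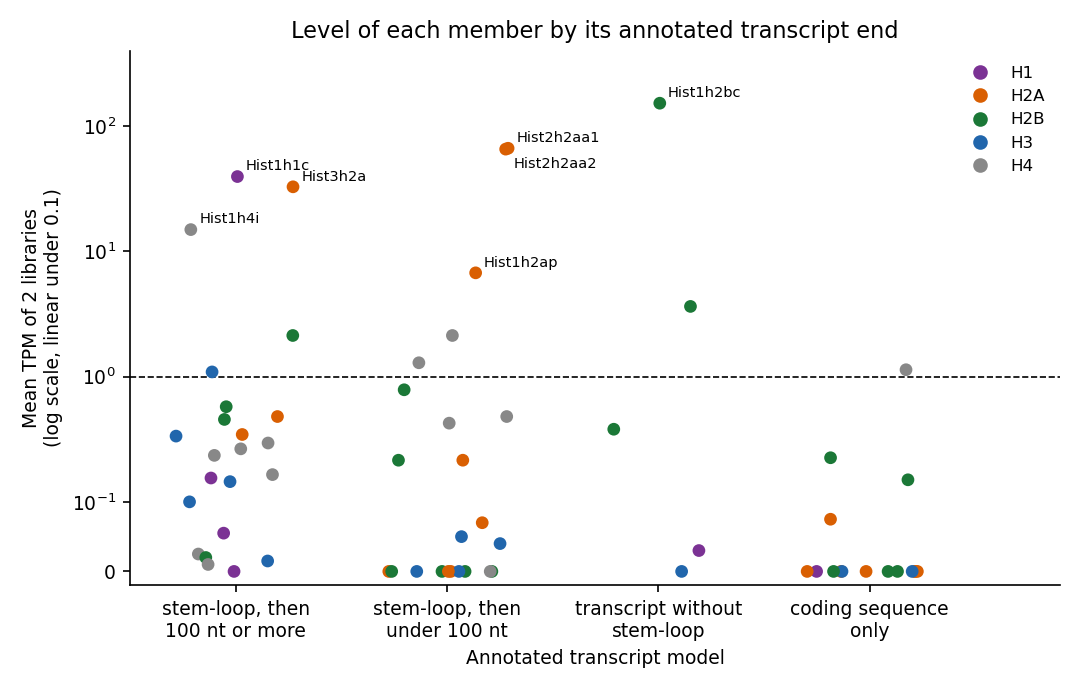
Mean TPM of the 2 libraries for each of the 67 members, one point per gene coloured by subtype, in 4 classes of annotated transcript model. The axis is logarithmic above 0.1 TPM and linear below it, and the dashed line marks 1 TPM. Hist1h2bc, at a mean of 152 TPM, is in the class without a stem-loop, while the coding-only class holds 12 of the 24 members at 0 counts and 1 point above the line, Hist1h4k, which was under 1 TPM in replicate 2.

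Many H2A and H2B genes lie back to back and share the space between their starts. There were 13 such pairs of members on opposite strands with starts under 1000 nt apart, 12 of them H2A with H2B, with gaps of 175 to 659 nt. In 0 pairs did both genes reach 1 TPM in both libraries, in 4 pairs 1 gene did, and in 9 neither did. As 4 of the 26 paired genes (15.4%) reached it, close to the 14.9% of all members, few pairs with both would be found at that share, and nothing particular to pairs is read from the count. Hist1h2bc and Hist1h2ac start 250 nt apart, yet Hist1h2ac had 0.11 and 0.58 TPM (9.13 and 42.9 counts) beside the 148 and 157 TPM of Hist1h2bc. Hist2h2be had 2.46 and 4.81 TPM and its partner Hist2h2ac 0 counts, and Hist1h2bg had 2.44 and 1.82 TPM beside 0.52 and 0.44 TPM of Hist1h2ae. In the fourth pair, Hist1h2ap had 10.5 and 2.94 TPM beside 0 and 0.30 TPM of Hist1h2br. The model of Hist1h2ac has a stem-loop, while that of Hist1h2bc has none and is spliced from 2 exons over 8710 nt of genome.

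The shared upstream sequence of the most unequal pair is printed because 1 stretch of DNA lies before both genes. It is the RefSeq promoter of Hist1h2ac (GRCm38.p6, chr13:23683960-23684198, minus strand), trimmed to the 239 bases outside both genes, read towards Hist1h2ac. Capitals mark matches on either strand to CCAAT, to TATAAA and to the octamer ATGCAAAT, a motif known from H2B promoters, and these matches do not overlap.
Hist1h2ac upstream: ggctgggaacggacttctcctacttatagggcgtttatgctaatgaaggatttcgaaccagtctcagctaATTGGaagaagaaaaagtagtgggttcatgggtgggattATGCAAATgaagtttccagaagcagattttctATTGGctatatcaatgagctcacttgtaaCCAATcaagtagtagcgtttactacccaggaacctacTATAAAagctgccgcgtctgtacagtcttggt
CCAAT matched 3 times, beginning 169, 98 and 69 nt before the Hist1h2ac start, and TATAAA and ATGCAAAT matched once each, 32 and 130 nt before it. Over the same 239 bases, CCAAT was in 32.9% of 32851 RefSeq promoters and in 52 of 63 promoters of 62 matched members (82.5%). TATAAA was in 11.9% of all promoters and 28 of the 63 (44.4%), and ATGCAAAT in 1.55% and 14 of the 63 (22.2%). A match describes letters and shows no binding.

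Most of the detected members kept similar values when the reads were quantified a second way. The gene tables described so far form the first quantification, made from a transcriptome alignment, and the second was made from the reads directly. Among the 15 members that averaged at least 1 TPM by either method, 3 differed 2-fold or more (20%), against 221 of 10167 protein-coding genes (2.17%). Hist2h2aa2 had 77.4 and 53.7 TPM in the first quantification and 30.4 and 0 TPM in the second, where Hist2h2aa1 had 52.9 and 122 TPM. As a pair they had 111 and 154 TPM by the first method, against 83.3 and 122 TPM by the second, so the split moved far more than the sum. The other members apart were Hist1h4k, with 1.43 and 0.84 TPM against 3.12 and 2.53 TPM, and Hist1h4n, with 0.38 and 0.58 TPM against 0.63 and 1.83 TPM. Hist1h4n has a sequence share of its own of 12.5% and Hist1h4k of 13.8%. Hist1h2bc had 131 and 143 TPM in the second quantification, Hist1h1c 30.0 and 43.4 TPM and Hist3h2a 30.9 and 30.7 TPM.

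**Figure D3:**
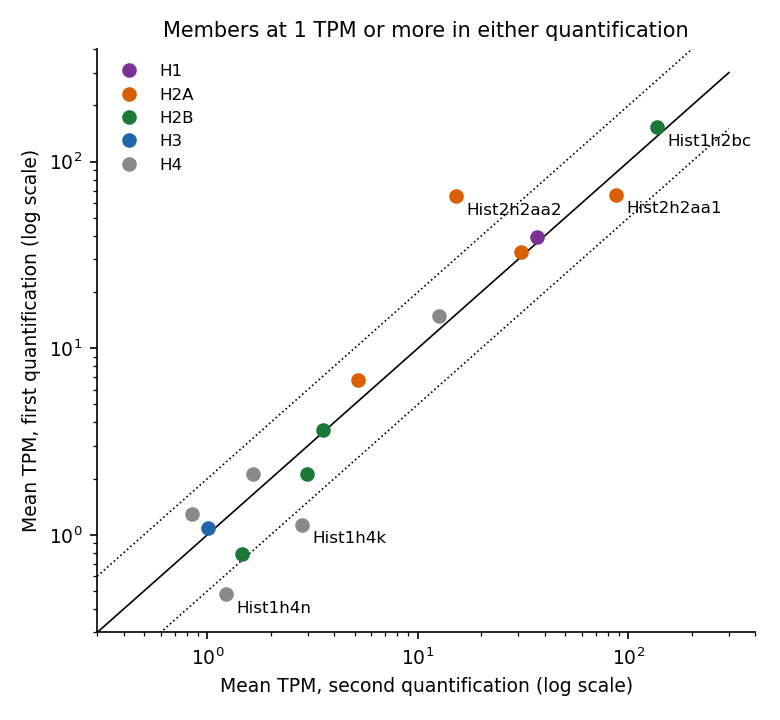
Mean TPM of the 2 libraries in the first quantification (vertical, log axis) against the second (horizontal, log axis) for the 15 members at a mean of 1 TPM or more in either. The solid line marks equal values and the dotted lines a 2-fold difference. Hist2h2aa2 lies above the dotted lines at 65.5 TPM (vertical) and 15.2 TPM (horizontal), while Hist1h4k and Hist1h4n lie below them.

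The 2 libraries differed more for several members than for most genes. Ratios are given as replicate 2 over replicate 1 on the log2 scale after TMM scaling, with exact 95% intervals that cover counting error only. After the filter on low counts, 3 of 11 members were 2-fold or more apart, against 528 of 12543 genes (4.21%). Hist2h2aa1 and Hist1h2be were higher in replicate 2, as were 2.3% of the filtered genes by this rule, and Hist1h2ap was higher in replicate 1, as were 1.91%. The median ratio of the 11 was 0.09, and that of all filtered genes was 0.00035. Taking each member with a mean count of 10 or more, 9 of 17 were 2-fold or more apart, against 879 of 13095 genes (6.71%). Of the 9, 8 were higher in replicate 2 (background 3.38%) and 1, Hist1h2ap, was higher in replicate 1 (background 3.33%). The shares over all genes were not matched to the members' counts, and ratios spread more widely where counts are few. At a mean count of 100 or more, 1 of 7 members, Hist2h2aa1, was 2-fold or more apart.

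Among those higher in replicate 2, Hist1h2ac had 9.13 and 42.9 counts in replicates 1 and 2, a log2 ratio of 2.32 (1.33 to 3.61). Hist1h4h had 6.05 and 24.7 counts, a log2 ratio of 2.09 (0.87 to 3.76). Hist2h4 had 5 and 17 counts, a log2 ratio of 1.79 (0.40 to 3.69). The intervals of all 8 lie above 0, and they are wide where counts are few. Hist1h2be had 18.8 and 46.9 counts (log2 ratio 1.41, 0.64 to 2.29), and its annotated gene overlaps Hist1h1e on the same strand. For Hist1h2bq, with 6.08 and 15.2 counts, and for Hist1h1d, with 8 and 18 counts, the lower limits were 0.0022 and 0.02. Hist2h2aa1 and Hist2h3c1 depend on how reads of identical sequence were divided, as described above. Hist1h2bq depends on such a division too. Its coding transcripts have no sequence stretches of their own, and its remaining transcript has 1.76%. The deposited posterior SD of its counts was 1.73 in replicate 1 and 4.06 in replicate 2, which its counting interval does not cover. For the summed Hist2h2aa pair the log2 ratio was 0.58 (0.47 to 0.69).

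Of the members outside the Hist2h2aa pair with a mean count of 100 or more, none was 2-fold apart, though Hist2h2be came near it. Hist1h2bc had a log2 ratio of 0.10 (0.04 to 0.16), Hist3h2a of -0.01 (-0.10 to 0.08), Hist1h1c of 0.50 (0.40 to 0.60), Hist1h4i of 0.65 (0.38 to 0.92) and Hist2h2be of 0.97 (0.72 to 1.22). For the summed counts of all members it was 0.24 (0.20 to 0.28).

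**Figure D4:**
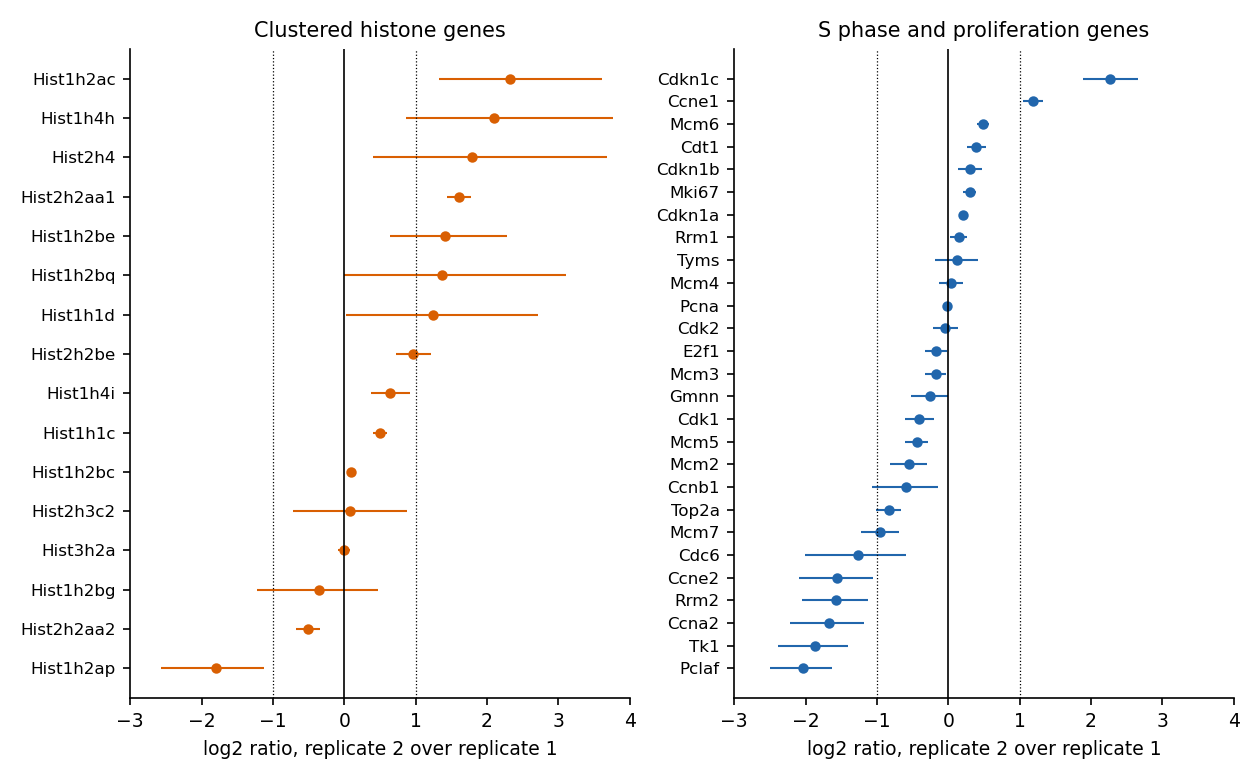
Log2 ratio of replicate 2 over replicate 1 with exact 95% counting intervals, for 16 of the 17 members with a mean count of 10 or more (left; Hist2h3c1, at 0 counts in replicate 1, is not drawn) and for 27 S phase and proliferation genes (right). The solid line marks equal levels and the dotted lines a 2-fold difference. Hist1h2ap and 6 of the proliferation genes lie beyond the left dotted line. Beyond the right one lie the members Hist1h1d, Hist1h2bq, Hist1h2be, Hist2h2aa1, Hist2h4, Hist1h4h and Hist1h2ac, and the proliferation genes Ccne1 and Cdkn1c.

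Hist1h2ap, at a log2 ratio of -1.80 (-2.57 to -1.13), was the 1 member 2-fold or more higher in replicate 1. Genes of DNA replication and division were set beside it, from a list of 27. Of these, 6 were 2-fold or more higher in replicate 1, namely Pclaf, Tk1, Ccna2, Rrm2, Ccne2 and Cdc6, against 1.91% of filtered genes. The cyclin Ccne1 and the cell cycle inhibitor Cdkn1c, 2 of the 27, were 2-fold or more higher in replicate 2, against 2.3% of filtered genes. Pclaf, a partner of the replication clamp, had 3.68 TPM in replicate 1 and 0.86 TPM in replicate 2, and the thymidine kinase Tk1 had 4.33 and 0.94 TPM. Mki67, a marker of cycling cells, had 5.77 and 7.29 TPM, and Top2a, a topoisomerase of dividing cells, had 6.21 and 3.50 TPM. The neutrophil markers S100a9 (37.9 and 2.23 TPM) and S100a8 (23.1 and 1.57 TPM) were also higher in replicate 1. The part of these genes in the difference for Hist1h2ap was not tested. In bulk RNA, fewer cells of a type and less RNA per cell cannot be told apart.

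Replication-independent histone genes, which lie outside the clusters, form the other source of histone mRNA. Per subtype, the clustered H3 genes summed to 1.78 ± 0.47 TPM (SD, n = 2), against 1498 ± 150 TPM for the replication-independent H3 genes. They made up 0.120% of this H3 level in polyA-selected RNA. As polyA selection samples the clustered genes only in part, this share and those for H1 and H2A are no shares of all histone mRNA. H3f3a and H3f3b, which encode the same replacement histone H3.3, had 892 and 766 TPM and 710 and 624 TPM. The centromeric H3 gene Cenpa had 2.26 and 1.69 TPM. For H1 the clustered genes summed to 39.8 ± 9.51 TPM, against 42.0 ± 8.95 TPM, a share of 48.6%. Hist1h1c and the replacement linker histone gene H1f0 (35.6 and 48.3 TPM) had levels within each other's spread, and H1fx had 0.03 and 0.06 TPM. For H2A the clustered genes summed to 173 ± 25.2 TPM, against 276 ± 25.3 TPM, a share of 38.4%.

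Of the replication-independent H2A genes, H2afz, which encodes H2A.Z, had 128 and 168 TPM, and H2afy, which encodes macroH2A, had 85.8 and 98.3 TPM. H2afj had 29.5 and 12.5 TPM, and the second H2A.Z gene H2afv 8.78 and 10.1 TPM. The DNA damage histone gene H2afx, which can also end at a stem-loop, had 5.73 and 4.27 TPM, and H2afy2 had 0.74 and 0.78 TPM. In the list of 11, 9 reached 1 TPM in both libraries, against 44.6% of protein-coding genes. No replication-independent H2B or H4 gene was on the list, so no share is given for these subtypes.

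**Figure D5:**
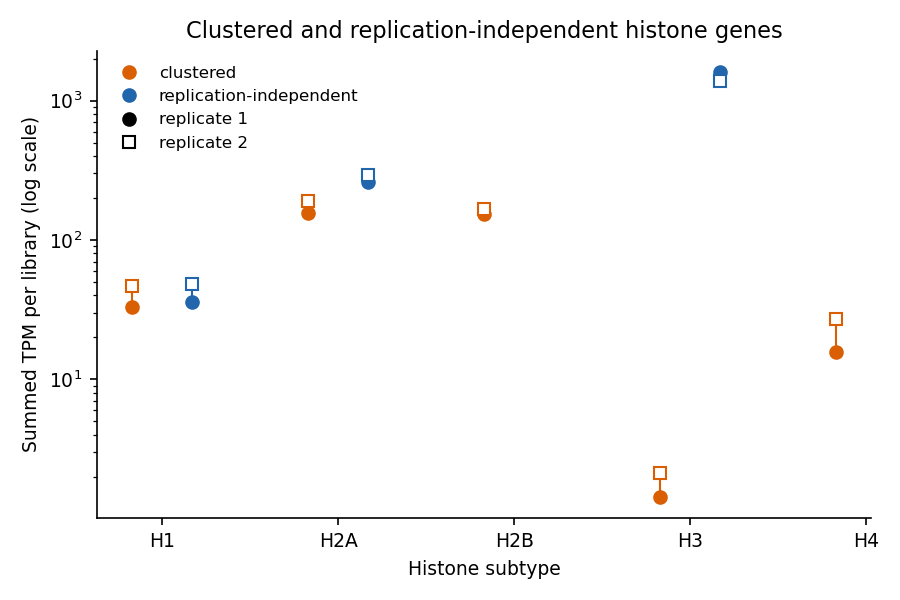
Summed TPM per library on a log axis for the clustered genes (orange) and the listed replication-independent genes (blue) of each subtype, with a filled circle for replicate 1 and an open square for replicate 2. Clustered H3 genes sum to 1.44 and 2.11 TPM, and the H1 sums of both kinds lie side by side.

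Transcripts for the proteins that make, cut and destroy histone mRNA were next examined. Of 19 matched genes for histone mRNA 3′ end formation, 18 reached 1 TPM in both libraries, against 44.6% of protein-coding genes. The highest were the kinase Cdk9, the cap-associated Srrt and the elongation factor subunit Nelfe, at 61.5 and 62.1, 63.1 and 58.2, and 56.1 and 55.6 TPM. Slbp had 19.7 and 21.3 TPM, and the U7-specific proteins Lsm10 and Lsm11 had 37.6 and 29.5 TPM and 1.02 and 1.24 TPM. Npat, the coactivator of histone gene transcription in S phase, had 3.01 and 3.48 TPM. The exception was Zfp473, a U7-associated zinc finger gene, with 0.10 and 0.03 TPM.

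All 12 matched genes of histone mRNA decay reached 1 TPM in both libraries, against 44.6% of protein-coding genes. The uridylating enzyme gene Tut7 was highest, with 122 and 130 TPM, followed by Mif4gd (38.2 and 36.6 TPM), a partner of Slbp, and the exosome subunit gene Exosc10 (34.5 and 34.2 TPM). The nuclease Eri1, which trims the stem-loop end, had 10.8 and 11.2 TPM. All 21 histone chaperone genes reached 1 TPM in both libraries too, against the same 44.6%. The highest were the H3.3 chaperone gene Daxx with 324 and 415 TPM, Npm1 with 221 and 187 TPM and Set with 160 and 182 TPM. Chaf1a, the large subunit of the chaperone that deposits replication-coupled H3, was lowest with 1.02 and 1.30 TPM.

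Of the 27 S phase and proliferation genes, 22 reached 1 TPM in both libraries, against 44.6% of protein-coding genes. The highest were the cell cycle inhibitor gene Cdkn1a with 250 and 291 TPM, the replication clamp gene Pcna with 216 and 215 TPM, and the helicase subunit gene Mcm6 with 22.3 and 31.8 TPM. In the end formation, decay and chaperone lists, 0 of the 18, 12 and 21 genes that passed the filter on low counts were 2-fold or more apart between the libraries, against 4.21% of all filtered genes, a share at which few genes of such lists would be apart.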

How the data were processed

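PolyA-selected RNA of 2 replicates of 1 group was analysed. The authors deposited, per the file headers, expected counts, TPM, posterior mean TPM and posterior SDs per gene and transcript (the first quantification). They also deposited estimated counts and TPM per transcript, made from the reads (the second quantification). The README deposited with each sample gives mm10 and GENCODE M21. For the aligner, the quantifiers and the strand setting no source used here gives a name. Reads from antisense or overlapping genes are therefore not known to be separated. Transcripts of the second quantification were summed per gene, and 86 gene identifiers were not in it.

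Levels are deposited TPM, as mean ± SD of 2 libraries. Expected counts were rounded to whole numbers for ratios, scaled with TMM in edgeR 4.0.16 (R 4.3.3) after filterByExpr, with a prior count of 0.5. The ratio step was tested on simulated data. Alternative size factors came from DESeq2 1.42.0. Intervals on ratios are exact 95% binomial (Clopper-Pearson) and cover counting error only. With 1 group there was no test between conditions. Tables were handled with pandas 2.3.3 and NumPy 2.4.6 in Python 3.11.15, intervals came from SciPy 1.17.1, and plots from matplotlib 3.10.9. Each member is represented by its coding transcript with the highest TPM. Sequences are from GENCODE M21 and RefSeq (GRCm38.p6), matched by Entrez ID.

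The members and gene lists were chosen with earlier results of these data known. The text names each member at 1 TPM or more in both libraries, those 2-fold apart between quantifications, those averaging 10 counts or more and 2-fold apart between libraries, those with 0 counts, and, of the other lists, the 3 highest genes and those a sentence turns on. Symk, on the end-formation list, had no match by symbol. Zcchc11 and Zcchc6 on the decay list are older symbols of Tut4 and Tut7, which matched.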

Additional observations from a re-analysis of the deposited data

Results flagged for a closer look

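Hist3h2bb-ps, a symbol of the same pattern that has no protein-coding transcript and so is no member, had 7 expected counts in replicate 1, above the 3 counts that an observed 0 allows, and 0 in replicate 2. The second quantification gave it 8 and 2 counts. The other symbols of this kind, Hist1h2aj and Hist1h2al, had 0 counts in both libraries.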

How the results depend on the processing

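Of 35 recomputed values, 26 stayed within the spread between replicates, within 1.5 times the reported count or, for a median log2 ratio, within 0.1. For the summed level and the shares, a value from 1 library always lies within that spread. Those alternatives are among the 26 and say nothing on stability. The count of 10 members at 1 TPM or more in both libraries was 6 at a threshold of 5 TPM, and 11 to 13 with 1 replicate left out. It was 9 in the second quantification, where the set differed. Hist2h2aa2 (30.4 and 0 TPM) and Hist2h3c2 (0.98 and 1.05 TPM) dropped out there, and Hist1h4k (3.12 and 2.53 TPM) came in. Leaving out a replicate gave a summed level of 359 to 434 TPM, a share of the leading member of 36.2% to 41.1%, a share of the leading 5 of 89.8% to 90.1%, and 2 to 3 members apart between the quantifications. In expected counts, an alternative chosen after seeing the data, the leading member held 43.7% and the leading 5 held 92.3%, since counts are not divided by length. The leading 5 held 88.5% in the second quantification and 88.2% by posterior mean TPM. The count of 3 members 2-fold apart between the libraries was 24 without a filter on low counts and 1, Hist2h2aa1, when a mean of 100 counts was required, where the median log2 ratio was 0.49 over 7 members. At 5 TPM or more, 1 member was apart between the quantifications. Summing the Hist2h2aa pair was also chosen after seeing the data. No paired analysis was possible because there is 1 group, and ratios between the libraries cannot be recomputed with a library left out. With 2 libraries and few counts, levels under 1 TPM rest on a handful of reads.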
